A study of Mus musculus with 4 samples.

Results

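The genes described here encode 2 beta subunits of the sodium pump and 4 small FXYD proteins that modulate it: Atp1b1, Atp1b3, Fxyd1, Fxyd2, Fxyd4 and Fxyd5. They were chosen by name from the 32285 genes of the feature table, without use of their measured values, and all 6 passed the filter on low counts. Their levels were followed in left kidneys of wild-type C57BL/6J male mice, 7-8 weeks old, profiled with 10x Visium, a slide whose barcoded spots each capture the messenger RNA of a small patch of tissue that can hold several cells. There were 2 sections of normal control kidney and 2 sections of kidney taken 24 h after both renal pedicles had been clamped for 30 min (ischemia-reperfusion). Each section was 10 µm thick, and all 4 lay on 1 slide. The labels do not say which mouse each section came from, so the p-values below measure the spread between sections, which may be technical.

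The sodium pump, or Na,K-ATPase, sits in the basolateral membrane of tubule cells, where it exports sodium in exchange for potassium and so drives sodium reabsorption along the nephron. A catalytic alpha subunit carries out transport, a glycosylated beta subunit is needed for folding of the complex and its delivery to the membrane, and an FXYD protein can bind as an additional component that tunes the pump's affinity for its ions. Tubule segments differ in their FXYD partner: Fxyd2, the gamma subunit, is known from most of the nephron and Fxyd4, also called CHIF, from the collecting duct, whereas Fxyd1 (phospholemman) is best known from heart and muscle and Fxyd5 (dysadherin) also affects cell adhesion.

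In the GRCm38 build the beta subunit genes lie at chr1:164437109-164458355 (Atp1b1) and chr9:96332655-96364442 (Atp1b3), both on the minus strand. Fxyd2 lies at chr9:45399669-45410278 on the plus strand, and Fxyd4 at chr6:117933559-117937692 on the minus strand. Fxyd1 (chr7:31051678-31057199) and Fxyd5 (chr7:31032722-31042481) lie close together on the minus strand of the same chromosome. The 250 bases before the RefSeq start of 4 members are shown 5′ to 3′ because Atp1b1 and Atp1b3, and likewise Fxyd1 and Fxyd5, changed in opposite directions after ischemia. They span chr1:164458356-164458605 for Atp1b1, chr9:96364432-96364681 for the first of 2 starts of Atp1b3, chr7:31054854-31055103 for Fxyd1 and chr7:31042332-31042581 for Fxyd5 on the minus strand of GRCm38.p6, and capitals mark CG dinucleotides.
Atp1b1: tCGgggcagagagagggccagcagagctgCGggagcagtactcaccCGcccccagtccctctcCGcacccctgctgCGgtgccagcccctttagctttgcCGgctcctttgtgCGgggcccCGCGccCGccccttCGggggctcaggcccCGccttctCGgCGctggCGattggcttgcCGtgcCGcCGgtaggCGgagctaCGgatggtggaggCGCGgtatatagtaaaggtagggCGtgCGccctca
Atp1b3: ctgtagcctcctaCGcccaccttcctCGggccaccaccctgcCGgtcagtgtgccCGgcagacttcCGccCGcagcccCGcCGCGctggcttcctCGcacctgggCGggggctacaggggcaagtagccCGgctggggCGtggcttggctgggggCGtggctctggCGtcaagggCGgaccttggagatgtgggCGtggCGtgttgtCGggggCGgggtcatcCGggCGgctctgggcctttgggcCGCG
Fxyd1: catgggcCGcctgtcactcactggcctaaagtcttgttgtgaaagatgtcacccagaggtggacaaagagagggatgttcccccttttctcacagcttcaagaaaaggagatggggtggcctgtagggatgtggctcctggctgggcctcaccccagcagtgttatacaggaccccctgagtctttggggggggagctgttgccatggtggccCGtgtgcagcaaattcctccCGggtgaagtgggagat
Fxyd5: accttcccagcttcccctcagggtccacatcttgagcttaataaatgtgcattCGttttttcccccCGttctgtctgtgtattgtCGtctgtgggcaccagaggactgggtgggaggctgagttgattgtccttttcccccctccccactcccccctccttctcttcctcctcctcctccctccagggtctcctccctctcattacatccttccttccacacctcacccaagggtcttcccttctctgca
Both beta subunit windows held 24 CG dinucleotides, against 3 in each of the Fxyd1 and Fxyd5 windows and a median of 6 over 32851 windows of the same length. Their GC content was 70.4% for Atp1b1, 73.6% for Atp1b3, 57.2% for Fxyd1 and 55.6% for Fxyd5, against a median of 52.4%. The window of Fxyd4 resembled those of the other FXYD genes, with 3 CG dinucleotides and 58% GC. That of the second Atp1b3 start held 35 CG dinucleotides at 76.8% GC. By the gene spans above, the Fxyd1 and Fxyd4 windows lay inside their genes and the Fxyd5 window partly so. The beta subunit windows shown lay at the ends of their genes, so the windows are not alike in position. Of 5 motifs searched on both strands, a CCAAT box (CCAAT, present in 33.8% of all windows) occurred in the Atp1b1 window, read there as ATTGG. An AP-1 site (TGANTCA, 6.75% of windows), a TATA box (TATAAA, 12.4%), a steroid receptor motif (AGAACA, 16.1%) and an HNF1 motif (GTTAAT, 6.43%) occurred in none of the members' windows. These matches describe letters of the windows only.

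The sections held 2401 to 2682 tissue spots and 25957128 to 44528078 unique molecular identifiers (UMIs, each counting 1 captured molecule), with medians of 8656 to 16162.5 UMIs per spot. Counts of all tissue spots of a section were summed, and levels are given as CPM, counts relative to the library's total, scaled by TMM unless they are called plain CPM. TMM divides out shifts shared by most genes. The injury markers Havcr1 (1.17 and 2.14 CPM in normal, 1287 and 1279 CPM in ischemic sections) and Lcn2 (5.93 and 7.97 CPM against 2793 and 3283 CPM) followed the labels. Spots were assigned to cortex, outer stripe, inner stripe, inner medulla or pelvis from marker genes that include none of the members. Because a spot mixes cells, fewer cells of a type and less RNA per cell cannot be told apart in any result below.

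The first comparison asked how the pump's beta subunits and FXYD partners differed between whole ischemic and normal sections. Atp1b1, Fxyd1 and Fxyd2 were lower after ischemia, Atp1b3 and Fxyd5 were higher, and Fxyd4 did not pass the test. This makes 5 of 6 members called at an adjusted p under 0.05 in edgeR's quasi-likelihood test, where 60.6% of the 15305 genes tested were called, 31% higher and 29.7% lower. With so many genes called, a call alone did not set a member apart, and direction, size and place are described for each.

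**Figure D1:**
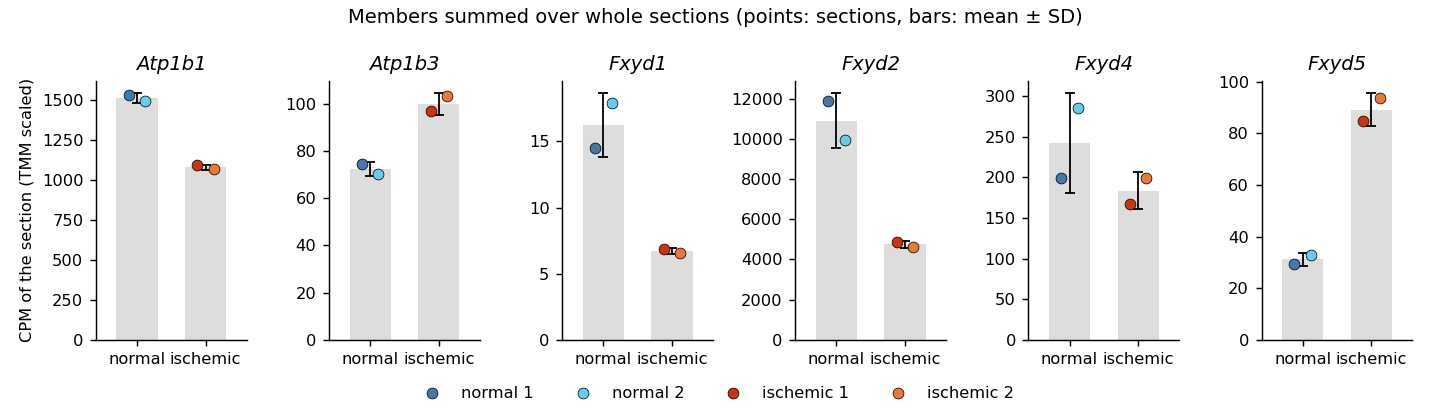
Levels of the 6 members summed over whole sections, in TMM-scaled CPM on axes that start at 0; points are sections and bars are the mean ± SD of 2 sections. The 2 ischemic sections lie below both normal sections for Atp1b1, Fxyd1 and Fxyd2 and above them for Atp1b3 and Fxyd5, while the groups overlap for Fxyd4.

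Atp1b1, the main beta subunit of kidney tubules, measured 1529.7 and 1488 CPM in the normal sections, against 1089 and 1063 CPM after ischemia. The groups did not overlap, and its means were 1509 ± 29.5 and 1076 ± 18.0 CPM (SD, n = 2 each). It fell by 0.49 on the log2 scale (SE 0.15, adjusted p = 0.0217), or 1.40-fold. Atp1b3, an alternative beta subunit found in many tissues, measured 74.5 and 70.4 CPM in normal sections, against 96.8 and 103 CPM after ischemia. Both ischemic sections were above both normal ones, and Atp1b3 rose 1.38-fold (log2 0.46, SE 0.10, adjusted p = 0.00394).

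The fall of Atp1b1 and rise of Atp1b3 changed how UMIs of these 2 genes were divided, a ratio within a section that does not depend on its scaling. Atp1b3 made up 4.64% and 4.52% of their summed UMIs in the normal sections, against 8.16% and 8.84% after ischemia. This share is given as a description, with no test. Atp1b1 lost its call without ischemic section 1 (adjusted p = 0.363) or ischemic section 2 (adjusted p = 0.401), and with scaling by library size alone (log2 -0.22, adjusted p = 0.0581), and Atp1b3 lost its call without ischemic section 2 (log2 0.43, adjusted p = 0.103).

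Fxyd2, the gamma subunit of the nephron, measured 11869 and 9951 CPM in the normal sections, against 4885 and 4629.5 CPM after ischemia. The groups did not overlap, and Fxyd2 fell by 1.2 on the log2 scale (SE 0.23, adjusted p = 0.00165), or 2.29-fold. Its direction held without ischemic section 1 (adjusted p = 0.173) or 2 (adjusted p = 0.212), but the call did not. Fxyd1, phospholemman, measured 14.5 and 17.9 CPM in normal sections, against 6.86 and 6.56 CPM after ischemia. It fell by 1.27 on the log2 scale (SE 0.14, adjusted p = 5.26e-05), or 2.41-fold, with no overlap.

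Fxyd5, dysadherin, measured 29.3 and 33.1 CPM in normal sections, against 84.7 and 93.7 CPM after ischemia, and rose 2.87-fold (log2 1.52, SE 0.11, adjusted p = 4.75e-06). It was the member with the largest change on the log2 scale. Fxyd4, the collecting duct member, measured 199 and 286 CPM in normal sections, against 167 and 199.5 CPM after ischemia. Its groups overlapped, and its log2 difference of -0.40 (SE 0.18, adjusted p = 0.0784) did not pass the test. The call for Fxyd4 depended on the fit: it was called by DESeq2 (adjusted p = 0.0378), without a filter on low counts (adjusted p = 0.0237) and without normal section 1 (log2 -0.63, adjusted p = 6.85e-14).

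Scaling by library size alone moved the median log2 difference of all genes from 0.04 to 0.31 and raised the share of higher genes among those called from 51.1% to 67.0%. On that scale Fxyd1 was at -1.01, Fxyd2 at -0.92, Atp1b3 at 0.74 and Fxyd5 at 1.78 in log2 difference, so their directions did not turn.

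Among all FXYD UMIs of a section, Fxyd2 accounted for 97.8% and 96.2% in normal sections, against 94.8% and 93.7% after ischemia. The share of Fxyd5 was 0.241% and 0.320% in normal sections, against 1.64% and 1.90% after ischemia. The share of Fxyd4 was 1.64% and 2.76% in normal sections, against 3.24% and 4.04% after ischemia, although its own level was not higher there.

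At the level of spots, an Fxyd5 UMI was found in 30.0% and 23.3% of normal and 61.1% and 55.4% of ischemic spots. With each spot thinned to 2000 UMIs, which left out 48 to 150 spots a section, these shares were 6.11%, 6.67%, 17.0% and 19.3%. Fxyd5 was therefore counted in a larger share of ischemic spots at matched depth too. Thinned shares of Fxyd1 were 3.23% and 3.75% in normal and 1.2% and 1.56% in ischemic spots, and those of Atp1b3 were 12.4% and 14.7% against 19.1% and 19.5%. Fxyd2 was counted in 99.1% to 99.9% of unthinned spots in every section, so that its change lay in the number of molecules per spot.

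**Figure D2:**
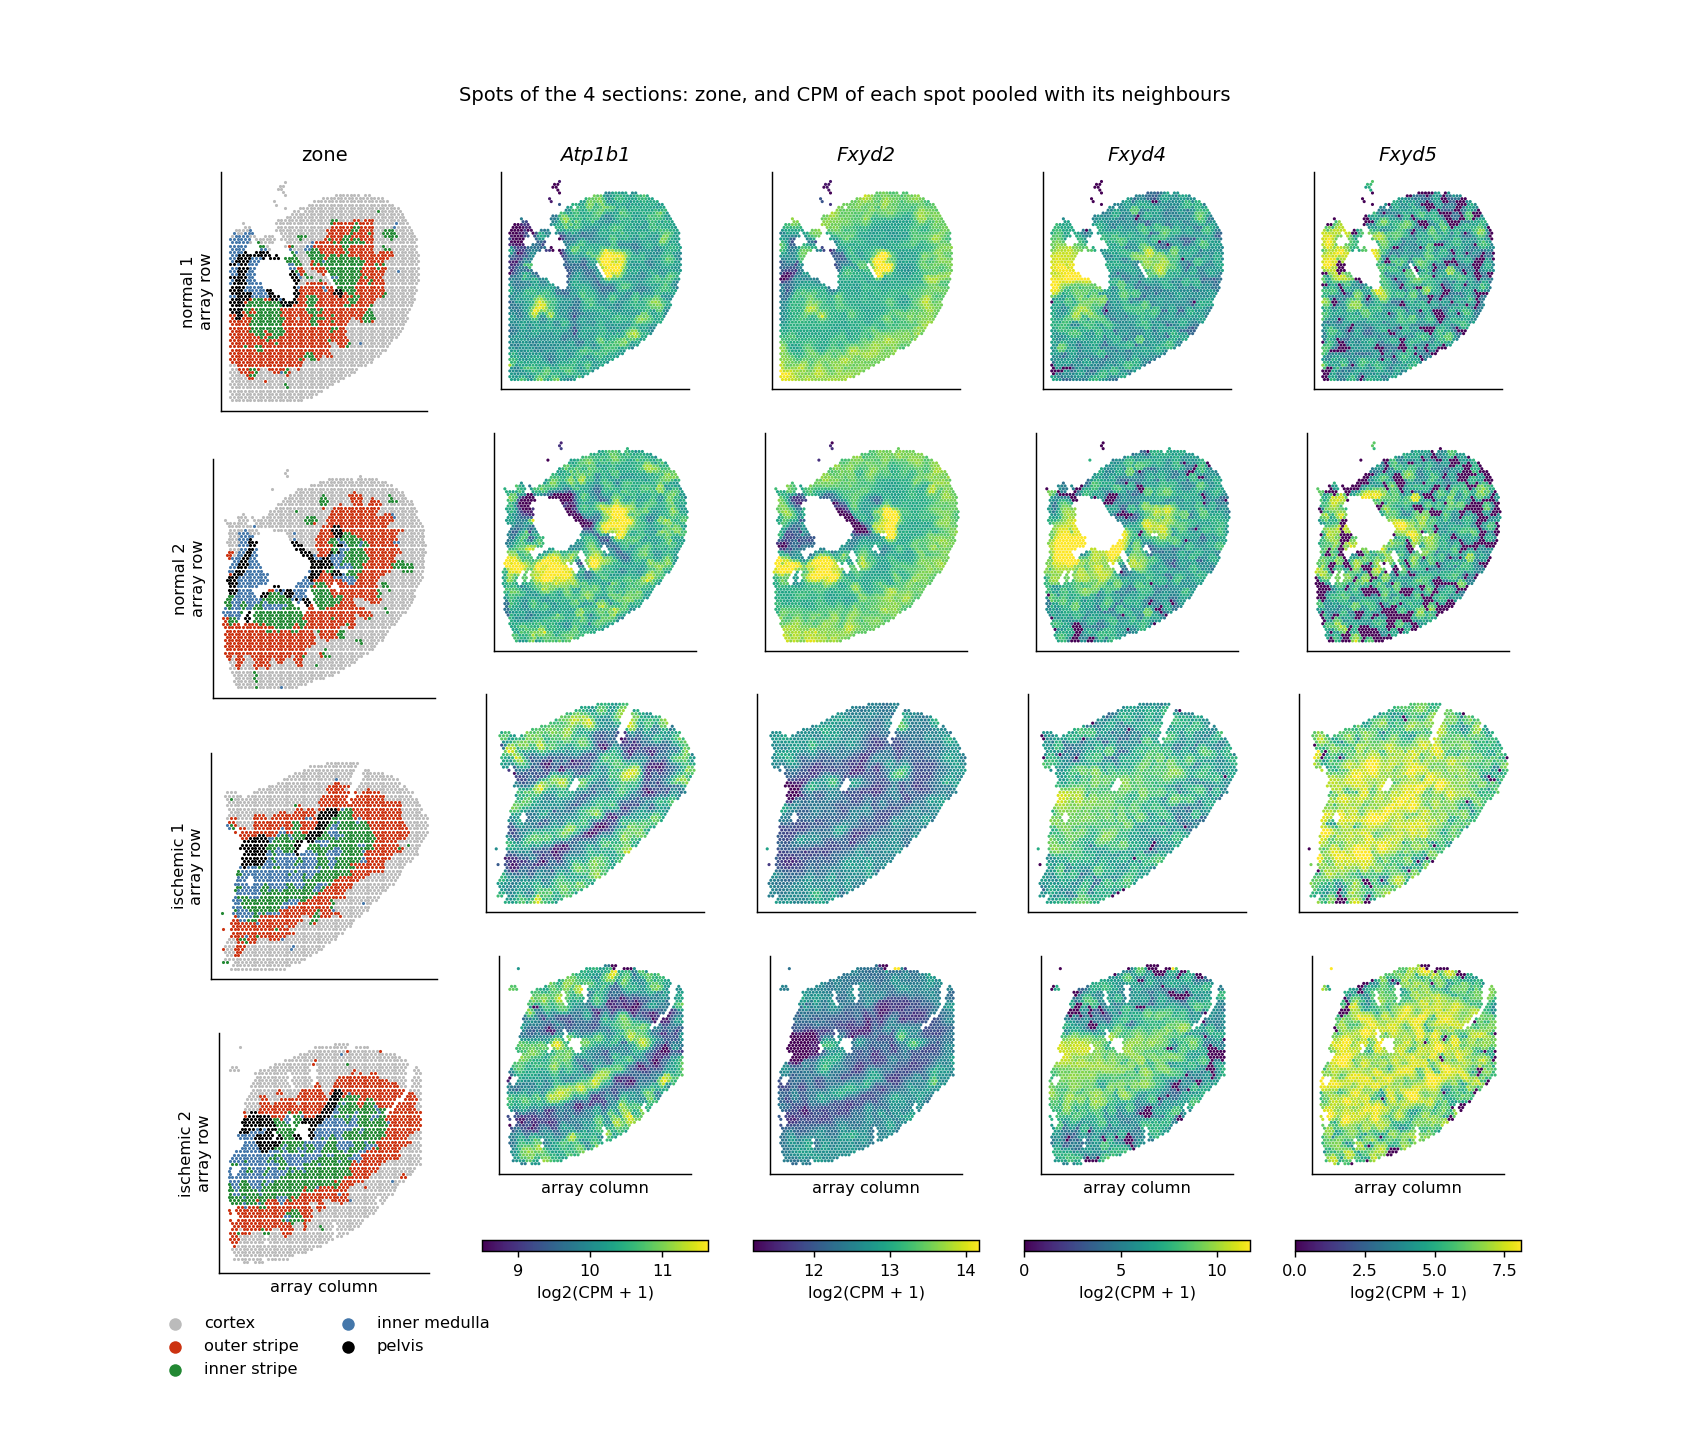
Maps of the 4 sections (rows), showing the zone given to each spot and the level of Atp1b1, Fxyd2, Fxyd4 and Fxyd5 as log2(CPM + 1) of each spot pooled with its neighbours. Fxyd4 is brightest towards the inner medulla and pelvis in all 4 sections, and Fxyd5 is brighter in both ischemic sections.

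The second question was where in the kidney these genes stood before injury. In normal sections Atp1b3, Fxyd1, Fxyd4 and Fxyd5 were higher in the inner medulla than in cortex and Atp1b1 and Fxyd2 were lower, as tested within sections in a model with the section as a block. Fxyd4 showed the steepest gradient of the 6. Its plain CPM was 74.4 and 86.2 in cortex, 110.2 and 131 in outer stripe, 334 and 617 in inner stripe, and 801 and 1858 in inner medulla. Relative to cortex it was 4.79-fold higher in the inner stripe (log2 2.26, adjusted p = 7.97e-07) and 11.9-fold higher in the inner medulla (log2 3.57, adjusted p = 3.01e-09). Its outer stripe log2 difference from cortex was 0.74 (adjusted p = 0.0314), a call lost without ischemic section 1 (adjusted p = 0.0527) or 2 (adjusted p = 0.0522).

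Fxyd1 and Fxyd5 were also higher in normal inner medulla than in normal cortex, 3.18-fold (adjusted p = 2.11e-05) and 3.09-fold (adjusted p = 2.29e-07). Without normal section 1 the log2 difference of Fxyd1 went from 1.67 to 0.91 (adjusted p = 0.000722), and without normal section 2 to 2.45 (adjusted p = 2.21e-12). Atp1b3 was higher in normal inner stripe (log2 0.52, adjusted p = 0.000229) and inner medulla (log2 0.87, adjusted p = 1.84e-06). Its outer stripe difference of 0.30 on the log2 scale (adjusted p = 0.0175) lost its call without ischemic section 1 (adjusted p = 0.102), ischemic section 2 (adjusted p = 0.104) or normal section 1 (adjusted p = 0.101).

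Fxyd2 and Atp1b1 ran the other way and were lower in normal inner medulla than in cortex. The log2 difference was -0.79 for Fxyd2 (adjusted p = 8.07e-06) and -0.66 for Atp1b1 (adjusted p = 0.000237), the latter not called with library size alone (log2 -0.25, adjusted p = 0.137). Fxyd2 was also slightly lower in the inner stripe (log2 -0.31, adjusted p = 0.0344), a call lost without normal section 1 (adjusted p = 0.192), ischemic section 1 (adjusted p = 0.0917) or ischemic section 2 (adjusted p = 0.0836). In all, 2 members were called in outer stripe, 3 in inner stripe and 6 in inner medulla against cortex, where 23.9%, 29.2% and 40.1% of 13975 genes were called.

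**Figure D3:**
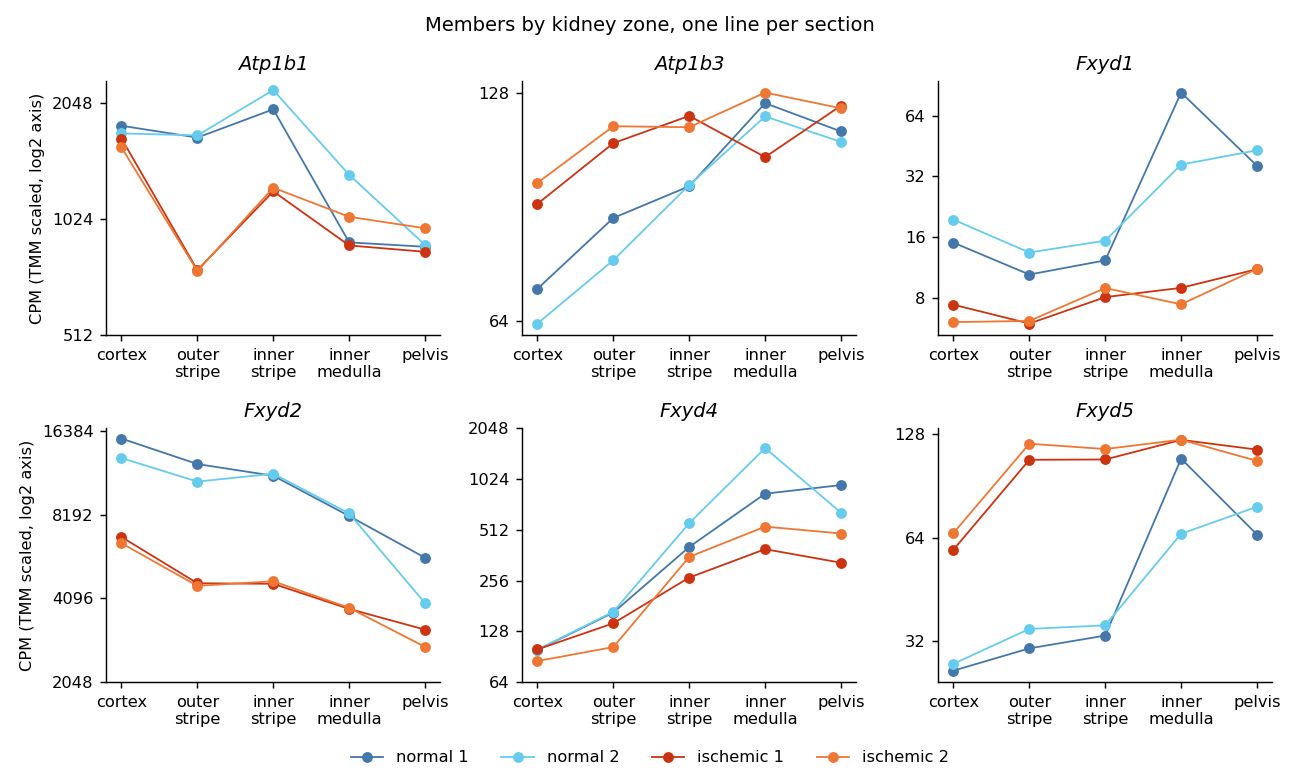
Level of each member by zone, in CPM on a log2 axis, with 1 line per section. TMM scaling was done over all 20 section and zone sums together, and slopes along a line are not a test. Atp1b1 separates normal from ischemic sections widely in the outer and inner stripes and narrowly in cortex. Its groups overlap in the inner medulla and pelvis, while Fxyd2 separates them in every zone.

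The third comparison asked how each zone differed between ischemic and normal sections. CPM by zone were scaled over all zones together, whereas each log2 or fold change came from a fit scaled within its zone. The call rates over all genes were 50.1% in cortex, 67.5% in outer stripe, 44% in inner stripe, 27.7% in inner medulla and 25.3% in pelvis, and 4, 6, 3, 3 and 4 of the 6 members were called in these zones.

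Atp1b1 was lower in the stripes of the outer medulla and not detectably so in cortex. In the cortex it measured 1784 and 1704 CPM in normal sections, against 1653 and 1567 CPM after ischemia, a log2 difference of -0.10 (SE 0.12, adjusted p = 0.526). This difference took the opposite sign with library size alone (log2 0.10, adjusted p = 0.336). Outer stripe sums measured 1662 and 1684 CPM against 754 and 750.5 CPM, and Atp1b1 fell by 1.12 on the log2 scale (SE 0.12, adjusted p = 1.68e-07), or 2.17-fold.

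In the inner stripe Atp1b1 measured 1967 and 2206 CPM in normal sections, against 1206 and 1233 CPM after ischemia, a fall by 0.76 on the log2 scale (SE 0.20, adjusted p = 0.0149). That call was lost without ischemic section 1 (adjusted p = 0.407), without ischemic section 2 (adjusted p = 0.383) and with library size alone (log2 -0.46, adjusted p = 0.0662). The inner medulla gave 889.9 and 1332 CPM against 874 and 1037 CPM, groups that overlapped (adjusted p = 0.569), although without normal section 1 the log2 difference was -0.43 (adjusted p = 0.00518). In the pelvis its values were 867, 877, 841 and 968 CPM (adjusted p = 0.812).

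The difference between zones was tested directly as the ischemic minus normal change in a zone less that in cortex. For Atp1b1 this was -1.04 on the log2 scale in the outer stripe (SE 0.17, adjusted p = 0.000172), where 2 members and 23% of all genes passed. It was called in all 13 alternatives run for it, with a highest adjusted p of 0.0281. Within ischemic sections, Atp1b1 was 2.14-fold lower in outer stripe than in cortex (adjusted p = 6.94e-07), whereas within normal sections the log2 difference of these zones was -0.06 (adjusted p = 0.778). Several marker lists moved in the outer stripe, given here as summed plain CPM in normal against ischemic sections. Injured tubule markers stood at 13.1 and 32 against 5049 and 5061 (2154 and 2119.9 in ischemic cortex). Ischemic inner stripe (7944 and 8162), inner medulla (11193 and 13127) and pelvis (7667 and 9435) held more of them than ischemic outer stripe. Smooth muscle markers in the outer stripe were at 38.6 and 55.7 against 414 and 465 (in cortex 152 and 357 against 163 and 158). Over whole sections Acta2 and Tagln of that list were higher after ischemia, and Myh11 and Cnn1 lower. Macrophage and neutrophil markers in the outer stripe were at 178 and 203 against 508 and 493 (in cortex 98.1 and 140.2 against 156 and 163). Slc12a1, the sodium cotransporter of the thick limb, went from 378 and 501 to 33.7 and 32.4 plain CPM in the outer stripe. Of the other thick limb markers, Cldn10 went from 334 and 365 to 63.8 and 64.6 there. Umod (3511 and 4053 to 2525 and 2403) and Ptger3 (17.6 and 19.9 to 10.98 and 10.41) fell less. The summed thick limb list went from 4240 and 4938 to 2633 and 2511. Slc7a13, an amino acid transporter of the straight proximal tubule, went from 803 and 830.3 to 26.4 and 28.8. Slc7a13 was in the list that placed spots in the outer stripe. The thick limb markers were in that of the inner stripe, so none of these genes is independent of that placement. Zone scores were standardised within each section. The outer stripe held 806 and 820 spots in normal sections, against 643 and 696 after ischemia. The part of these markers and of zone placement in the result was not tested.

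The same test called 1 member in the inner stripe, Atp1b1 (log2 -0.66, adjusted p = 0.00908), beside 19.5% of genes, and it lost its call without ischemic section 1 (adjusted p = 0.184) or 2 (adjusted p = 0.105). In the inner medulla it called Atp1b3, Fxyd1, Fxyd4 and Fxyd5, 4 of 6 members, beside 14% of genes. All 4 differences were negative, and each lost its call when either ischemic section was left out.

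Atp1b3 rose in cortex and outer stripe. In cortex it measured 70.6 and 63.5 CPM in normal sections, against 91.4 and 97.4 CPM after ischemia (log2 0.51, SE 0.10, adjusted p = 0.000599). Outer stripe values were 87.6 and 77.0 CPM against 110.0 and 116 CPM (log2 0.49, SE 0.09, adjusted p = 0.000168). The inner stripe (96.4 and 96.8 against 119 and 115 CPM) had a log2 difference of 0.30 (adjusted p = 0.155), which was called without normal section 1 (adjusted p = 0.0232) or normal section 2 (adjusted p = 0.0301). Values in the inner medulla (124 and 119 against 105 and 128 CPM) overlapped, and the pelvis difference was not called (log2 0.15, adjusted p = 0.617).

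The share of Atp1b3 in the beta subunit UMIs followed both genes. In the outer stripe it was 5.0% and 4.37% in normal sections, against 12.7% and 13.4% after ischemia, the widest separation among the 5 zones. It was 3.81% and 3.59% against 5.24% and 5.85% in cortex, and 4.67% and 4.20% against 9.01% and 8.56% in inner stripe. For the inner medulla (12.2% and 8.22% against 10.8% and 11%) and the pelvis (11.6% and 11.2% against 12.8% and 11.2%) the groups overlapped or met.

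Fxyd2 fell in each of the 5 zones. The cortex measured 15362 and 13073 CPM in normal sections, against 6806 and 6464 CPM after ischemia (2.12-fold lower, adjusted p = 6.72e-05). The outer stripe measured 12439.9 and 10762 CPM against 4642 and 4543 CPM (2.47-fold lower, adjusted p = 1.81e-06), and the inner stripe 11295 and 11482 CPM against 4621 and 4720.1 CPM (2.41-fold lower, adjusted p = 0.00311). The inner medulla gave 8094 and 8268 CPM against 3755 and 3788 CPM (2.14-fold lower, adjusted p = 0.00582). The pelvis gave 5733 and 3938 CPM against 3163 and 2743 CPM (1.62-fold lower, adjusted p = 0.0264).

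The pelvis call of Fxyd2 was lost without normal section 1 (log2 -0.39, adjusted p = 0.244) or ischemic section 2 (adjusted p = 0.0537). The inner stripe call was lost without ischemic section 1 (adjusted p = 0.28) or 2 (adjusted p = 0.267), as was the inner medulla call (adjusted p = 0.157 and 0.159). The change of Fxyd2 was not shown to differ between zones: the log2 difference from the cortical change was -0.24 in outer stripe (SE 0.15, adjusted p = 0.29), -0.19 in inner stripe (SE 0.15, adjusted p = 0.434) and -0.03 in inner medulla (SE 0.15, adjusted p = 0.951).

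**Figure D4:**
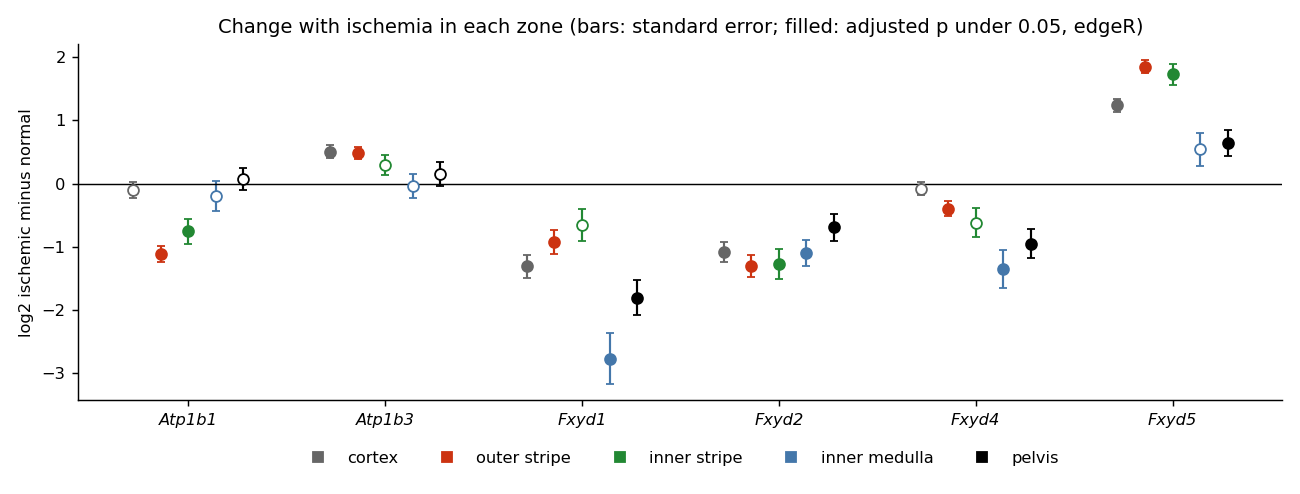
Log2 change of each member, ischemic minus normal, in each zone with its standard error; filled symbols have an adjusted p under 0.05. Atp1b1 lies near 0 in cortex (-0.10) and at -1.12 in outer stripe, while Fxyd2 lies between -1.30 and -0.70 in all 5 zones.

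Fxyd5 rose in every zone except the inner medulla, where it did not pass the test. It measured 26.2 and 27.4 CPM in normal and 59.0 and 66 CPM in ischemic cortex (2.36-fold higher, adjusted p = 2.46e-07). The outer stripe gave 30.4 and 34.6 CPM against 108 and 120.3 CPM (3.60-fold higher, adjusted p = 1.09e-11), and the inner stripe 33.1 and 35.5 CPM against 108 and 116 CPM (3.31-fold higher, adjusted p = 0.000107). The rise was larger in outer stripe than in cortex by 0.59 on the log2 scale (SE 0.18, adjusted p = 0.0221), a call lost without ischemic section 1 (adjusted p = 0.27) or 2 (adjusted p = 0.244).

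In the pelvis Fxyd5 measured 65.3 and 78.7 CPM in normal sections, against 116 and 107 CPM after ischemia (1.56-fold higher, adjusted p = 0.0343). The pelvis call was lost without normal section 1 (adjusted p = 0.1), ischemic section 1 (adjusted p = 0.224) or ischemic section 2 (adjusted p = 0.112), and in DESeq2 (adjusted p = 0.158). In the inner medulla its values were 109 and 65.6 CPM against 123 and 124 CPM, a log2 difference of 0.54 (adjusted p = 0.154) that reached 0.96 without normal section 1 (adjusted p = 1.54e-05).

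Fxyd1 fell in cortex from 15.1 and 19.6 to 7.44 and 6.10 CPM (2.48-fold lower, adjusted p = 3.42e-05). Its outer stripe level was 10.5 and 13.5 CPM in normal sections, against 6.00 and 6.19 CPM after ischemia (1.90-fold lower, adjusted p = 0.000336), a call lost with library size alone (log2 -0.57, adjusted p = 0.0514). In the inner stripe (12.3 and 15.4 against 8.11 and 8.99 CPM) the log2 difference of -0.66 was not called (adjusted p = 0.0605), but was without normal section 1 (log2 -0.84, adjusted p = 0.0138). Its differences were larger in the inner medulla, at 83.1 and 36.7 CPM in normal sections, against 9.01 and 7.47 CPM after ischemia (6.83-fold lower, adjusted p = 0.00191), and in the pelvis, at 36.1 and 43.1 against 11.1 and 11.2 CPM (3.51-fold lower, adjusted p = 0.00048). Without normal section 1 the inner medulla difference was -2.10 on the log2 scale (adjusted p = 6.95e-08), against -2.77 with it. The inner medulla and pelvis sums were of 16 to 81 UMIs per section, so counting error is sizeable.

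Fxyd4 differed most in the zones where it stood high. In the inner medulla it measured 838 and 1560.2 CPM in normal sections, against 393 and 534 CPM after ischemia (2.55-fold lower, adjusted p = 0.0119), and in the pelvis 942 and 646 CPM against 327 and 486 CPM (1.93-fold lower, adjusted p = 0.00996). Both calls were lost without ischemic section 1, at an adjusted p of 0.0991 in the inner medulla (log2 -1.13) and of 0.129 in the pelvis (log2 -0.67). In cortex its values were 99.4, 99.8, 100.1 and 85.5 CPM (log2 -0.08, adjusted p = 0.524).

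In the inner stripe Fxyd4 measured 405 and 561 CPM against 267 and 354 CPM, a log2 difference of -0.62 (adjusted p = 0.0571) that passed without normal section 1 (log2 -0.84, adjusted p = 1.56e-25) or normal section 2 (log2 -0.42, adjusted p = 3.08e-06). In the outer stripe it measured 165 and 167 CPM against 143 and 103 CPM (log2 -0.40, adjusted p = 0.00687). That call was lost without ischemic section 2 (log2 -0.18, adjusted p = 0.36), with library size alone (log2 -0.03, adjusted p = 0.824) and without spots near a zone boundary (log2 -0.21, adjusted p = 0.157).

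The makeup of the inner medulla and pelvis zones differed between sections, which touches each value of these zones above. The inner medullary urea transporter gene Slc14a2 stood there at 125 and 418 plain CPM in normal sections, against 844 and 641 plain CPM after ischemia, and Aqp2, the water channel of principal cells, at 3041 and 2816 against 567 and 1200.4 plain CPM. Summed adipocyte markers there were at 5510.0 and 1034 plain CPM in normal sections, against 328 and 249.7 plain CPM after ischemia, smooth muscle markers at 1538 and 373 against 332 and 226, and urothelium markers at 974 and 2179 against 9.48 and 56.5. Red cell markers were at 40660.5 and 17730.5 plain CPM in normal and 569.8 and 797 plain CPM in ischemic inner medulla, and proximal tubule markers at 1457 and 1227 against 129 and 79.1. Slc14a2 and Aqp2 were in the list that placed spots in this zone, which held 121 and 240 spots in normal sections, against 297 and 337 after ischemia. In the pelvis, urothelium markers stood at 5215 and 6336 plain CPM in normal sections, against 766 and 1116 after ischemia, and adipocyte markers at 3352 and 1412 against 205 and 149.8. The part of this makeup in the results was not tested, and the plane of each section and the condition cannot be told apart here.

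Within ischemic sections the gradient of Fxyd4 remained, at 3.30-fold higher in inner stripe than in cortex (adjusted p = 9.09e-06) and 4.93-fold higher in inner medulla (adjusted p = 2.82e-07). Fxyd5, which in normal sections did not pass against cortex in outer stripe (log2 0.28, adjusted p = 0.164) or inner stripe (log2 0.35, adjusted p = 0.103), was higher there in ischemic sections (log2 0.87 and 0.85, adjusted p = 8.72e-06 and 9.9e-06). The direct test of that difference passed in outer stripe (log2 0.59, adjusted p = 0.0221) and not in inner stripe (log2 0.49, SE 0.20, adjusted p = 0.0921). In ischemic sections 4, 5 and 5 members were called in outer stripe, inner stripe and inner medulla against cortex, where 37.7%, 49.6% and 47.9% of genes were called.

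Spots rich in the markers of a cell type show where each member was found. For each list, spots with at least 500 UMIs were ranked by the mean log level of its markers, and by summed marker CPM where tied. The top 5% of a section were compared with the other ranked spots of that section, in plain CPM. No test was made, since spots of a section are not replicates.

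Atp1b1 was high relative to other spots where markers of the thick ascending limb or the distal convoluted tubule were rich, segments known for dense sodium pumps. Thick limb-rich spots held 2693 and 3424 CPM of Atp1b1 in normal sections, against 1218 and 1422 CPM in the others, and 1816 and 1917 CPM in ischemic sections against 1162 and 1139.6 CPM. In spots rich in distal convoluted tubule markers it held 2269 and 2414 CPM in normal sections, against 2337 and 2135 CPM after ischemia. The ratio of thick limb-rich to other spots thus was 2.21 and 2.41 in normal sections, against 1.56 and 1.68 after ischemia, while for distal convoluted tubule-rich spots it was 1.87 and 1.69 against 2.08 and 1.91.

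Spots rich in injured tubule markers held 610 and 599 CPM of Atp1b1 in ischemic sections, where other spots held 1231 and 1218 CPM. Fxyd2 in the same spots was at 4073 and 3975 CPM against 5433 and 5199 CPM. Spots rich in macrophage and neutrophil markers in ischemic sections held 710.5 and 678 CPM of Atp1b1 against 1217 and 1204 CPM. Both members were thus lower in the spots richest in injured tubule markers than in the other spots of ischemic sections. By zone this did not hold for Atp1b1. Ischemic inner medulla held 11193 and 13127 plain CPM of these markers, against 5049 and 5061 in ischemic outer stripe. Atp1b1 was at 1066 and 1254 plain CPM in that inner medulla, against 720 and 714 in that outer stripe.

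**Figure D5:**
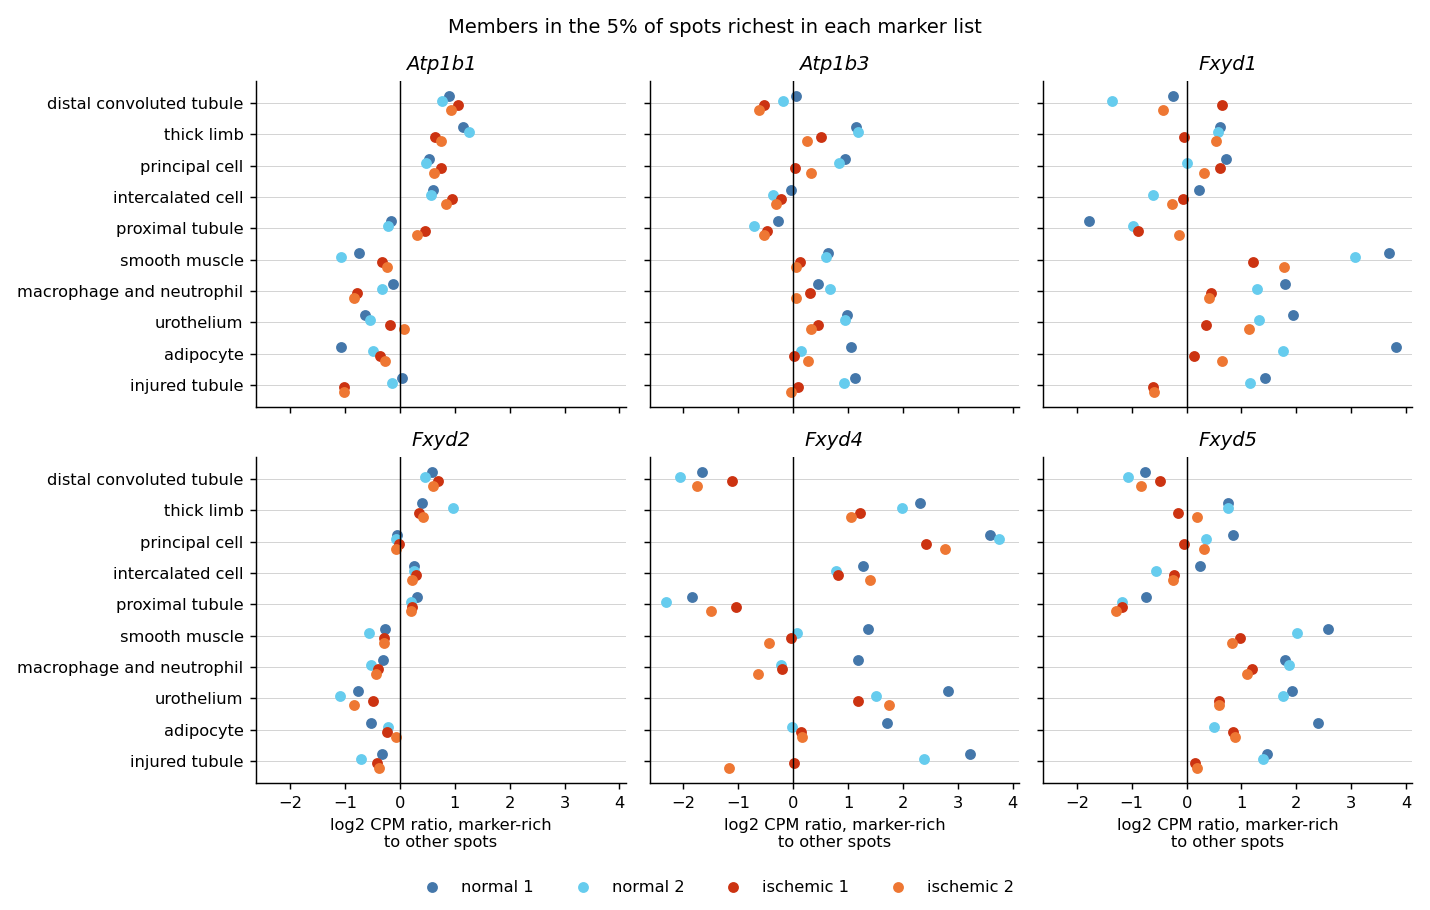
Log2 ratio of plain CPM in the 5% of spots richest in each marker list to that in the other spots of the section. Only spots with at least 500 UMIs were used, for 6 members and 10 lists, with 1 point per section. In ischemic sections the adipocyte list was almost all Fabp4, and the smooth muscle list was mostly Acta2 and Tagln. Fxyd4 is highest in principal cell-rich spots of all 4 sections, with ratios of 5.35 to 13.4, and Fxyd1 is higher in smooth muscle-rich spots than in others, with ratios of 2.3 to 12.9.

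Fxyd4 followed principal cells of the collecting duct, at 1389 and 2589.9 CPM in spots rich in their markers in normal sections against 116 and 193 CPM elsewhere. In ischemic sections it was at 805 and 1195 CPM against 151 and 177 CPM. Summed principal cell markers of whole sections were at 352 and 477 plain CPM in normal sections, against 316 and 449 plain CPM after ischemia, groups that overlapped as those of Fxyd4 did.

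Fxyd1 was high in spots rich in smooth muscle markers, at 113 and 109 CPM in normal sections against 8.8 and 13 CPM elsewhere. In ischemic sections it was at 16.2 and 21.9 CPM against 7.03 and 6.4 CPM, but counts of that list were there mostly of Acta2 and Tagln. The 5% of spots highest in the adipocyte list held 126 and 53.7 CPM of Fxyd1 in normal sections and 8.19 and 11.1 CPM in ischemic sections. In the latter that list was almost all Fabp4, so those spots are not named by a cell type.

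Other markers moved with Fxyd1 over whole sections. Of the adipocyte list, Adipoq went from 15.3 and 7.59 to 0.0966 and 0.116 plain CPM and Cfd from 219 and 104 to 0.29 and 0.308 plain CPM, with 3 to 10 UMIs of Adipoq, Plin1 or Cfd left in each ischemic section. Fabp4 stood at 315 and 282 against 226 and 218 plain CPM. Of the smooth muscle list, Myh11 went from 29.7 and 39.8 to 10.9 and 11 plain CPM and Cnn1 from 14.1 and 18 to 1.64 and 2.23 plain CPM. Acta2, at 88.5 and 133 against 174 and 186 plain CPM, and Tagln, at 21.4 and 50.4 against 107 and 118 plain CPM, ran the other way. The part of these cell types in the fall of Fxyd1 was not tested. Beside the log2 difference of -1.27 in all spots, Fxyd1 was at -1.01 (adjusted p = 0.00165) without the 5% of spots highest in the adipocyte list and at -0.96 (adjusted p = 0.000237) without those highest in the smooth muscle list. In cortex and outer stripe alone it was at -1.18.

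Fxyd5 was high in spots rich in macrophage and neutrophil markers, at 76.8 and 104 CPM in normal sections, against 199.6 and 208 CPM after ischemia. It was also higher in the other spots of ischemic sections, at 86.9 and 97.2 CPM against 22.1 and 28.6 CPM in normal ones. Within that list the neutrophil genes S100a8 (0.337 and 0.579 plain CPM in normal sections, against 76.7 and 76.8 after ischemia) and S100a9 (0.629 and 0.832 against 83.7 and 84.6) moved with Fxyd5. The macrophage genes did not move as one: Csf1r went from 42.6 and 41.8 to 13.7 and 12.8 plain CPM, while C1qa (31.9 and 47.2 against 34.1 and 36.8), C1qb (47.5 and 76.6 against 53.8 and 53.8) and Lyz2 (45.7 and 71.4 against 79.3 and 73.3) lay closer together. All 6 markers of the list were detected, and their part in the result was not tested. In the 19.4% to 31.2% of spots with no UMI of these markers, Fxyd5 was higher in ischemic sections (log2 1.47, adjusted p = 8.45e-10). In those spots the log2 difference of Fxyd1 was -0.73 (adjusted p = 0.0166) and that of Atp1b1 was -0.30 (adjusted p = 0.186), so the call of Atp1b1 was lost.

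Proximal tubule-rich spots were poor in Fxyd5, at 14.9 and 15 CPM in normal sections where other spots held 24.7 and 34.1 CPM, and at 42.2 and 43.8 CPM in ischemic sections where other spots held 95.6 and 107 CPM. Atp1b3 was at 131 and 153 CPM in thick limb-rich spots of normal sections against 59.2 and 67.3 CPM elsewhere, and at 147 and 135 against 104 and 113 CPM in ischemic sections. Its contrast between these spots was thus narrower in ischemic sections, with a ratio of 2.22 and 2.27 in normal sections, against 1.41 and 1.19 after ischemia.

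Across whole sections, 4 of 5 other beta subunit and FXYD genes had counts enough for the test, of which 0 were higher and 2 lower after ischemia, beside 31% and 29.7% of all genes, with a median log2 difference of -1.38 against 0.04 over all genes. Fxyd3 fell from 16.3 and 41.6 to 6.42 and 9.11 CPM (log2 -1.89, adjusted p = 0.00207), and Fxyd6 from 8.32 and 11.2 to 3.53 and 4.05 CPM (log2 -1.36, adjusted p = 0.000232). The third beta subunit tested, Atp1b2, was at 5.36 and 6.05 CPM against 5.09 and 5.02 CPM (log2 -0.17, adjusted p = 0.38), and Fxyd7 was at 0.488 and 0.435 against 0.265 and 0.0698 CPM (adjusted p = 0.0519). Atp1b4, with 0 or 1 UMI per section, was too low to test.

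Genes that work with the pump in sodium transport mostly fell. Of 9 apical sodium entry genes, which let sodium into the cell from the urine side, 0 rose and 7 fell, beside 31% and 29.7% of all genes, with a median log2 difference of -1.25. The largest fall was that of Slc34a1, the proximal sodium-phosphate cotransporter, from 2386 and 2043 to 186 and 174 CPM (log2 -3.62, adjusted p = 5.78e-07). All 9 basolateral potassium, chloride and bicarbonate partners fell, beside 29.7% of all genes, with a median of -0.79, and Bsnd (barttin), the chloride channel beta subunit, fell most, from 25.6 and 30.6 to 6.47 and 6.84 CPM (log2 -2.08, adjusted p = 1.43e-06). Within zones, all 9 partners were lower in the outer stripe (33% of all genes lower) and 8 of 9 in cortex (24.3% lower). The entry genes gave 8 of 9 and 7 of 9, but Slc34a1, Slc5a2, Slc5a12, Slc12a3 and Slc12a1 had served to place spots in zones, so these zone counts are not independent of that placement.

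Of 8 pump regulators tested, 1 rose and 5 fell, beside 31% and 29.7% of all genes, with a median of -0.59. The rise was that of Stk39 (SPAK), a kinase that acts on sodium-chloride cotransporters, from 15.3 and 15.6 to 27.7 and 28.4 CPM (log2 0.87, adjusted p = 5.15e-05). The largest fall was that of Nkain4, whose product interacts with the pump, from 38 and 39 UMIs to 1 and 5 UMIs per section (log2 -3.60, adjusted p = 0.000477).

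The genes whose pattern was most like each member's were found over the 20 section and zone sums, by Pearson correlation of log2(CPM + 1) among 13967 genes; these points share sections and depth, so r is a description only. Fxyd2 was closest to Atp5g1 (r = 0.985), Cox5b (r = 0.978) and Ndufs5 (r = 0.974), which encode parts of the mitochondrial ATP synthase and respiratory chain. Fxyd4 was closest to Cck (r = 0.965), Aqp2 (r = 0.958) and Apela (r = 0.955), of which Aqp2 had served to place spots in the inner medulla. Fxyd5 was closest to AA467197 (r = 0.973), Emp3 (r = 0.965) and Vcl (r = 0.964), and Fxyd1 to Crip1 (r = 0.959), Gsn (r = 0.957) and Ifi27l2a (r = 0.953).

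Atp1b3 was closest to Capg (r = 0.940), Serinc2 (r = 0.925) and Slco4a1 (r = 0.923). Atp1b1 was closest to Vegfb (r = 0.929), Nme7 (r = 0.922) and Dmtn (r = 0.920). Nme7 overlaps Atp1b1 on the opposite strand. The strand setting of the counting was not stated in the sources read, so whether the counting kept reads of these 2 genes apart was not checked. Between members the correlation was 0.797 for Atp1b1 and Fxyd2, 0.860 for Atp1b3 and Fxyd5, and -0.905 for Fxyd2 and Fxyd5.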

How the data were processed

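The data were Visium UMI counts per gene and spot of 4 kidney sections, deposited by the authors as raw counts made with Space Ranger 1.3.0 on build mm10 (from the file headers and the submitters' processing notes); the sources used here name no annotation release. Here counts of tissue spots were summed per section, and per section and zone. Spots took the zone with the highest standardised marker score of the spot and its 6 neighbours; pelvis needed 10 counts of its markers and the top 5% of the section. Zones with at least 20 spots were tested. edgeR 4.0.16 in R 4.3.3 (TMM, filterByExpr, quasi-likelihood test, two-sided) compared ischemic with normal sums, 2 against 2, with Benjamini-Hochberg adjustment over all genes tested and a threshold of 0.05. Between-zone contrasts and their difference with ischemia came from 1 model with the section as a block. DESeq2 1.42.0, other scalings, filters, zone rules and left-out sections were alternatives. Log levels used a pseudocount of 1 CPM. Tested on simulated counts with 200 changed genes, the whole-section fit of 15305 genes called 157 of them and 9 others. Fits by zone called 154 of 200 in cortex, 159 in outer stripe, 121 in inner stripe, 84 in inner medulla and 91 in pelvis. The outer stripe difference from the cortical change called 98 of 200, and 5 of 65 genes changed 1.5-fold. Far fewer genes changed there than were called in the real data, so these counts do not give its rate of false calls. Shares of spots cover counting error only, since spots of a section are not replicates. Coordinates are from GENCODE M21, promoters from RefSeq; 5 of 6 members had a promoter window, and none was given for Fxyd2.

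The members, lists and alternatives were chosen with earlier results of these data known, and those that leave out spots by marker level or keep only cortex and outer stripe were added after seeing the data. All 6 members are named; of the other genes the text names, per list, the tested gene with the largest rise and fall past the threshold, the other beta subunit and FXYD genes measured, and the 3 genes closest in pattern to each member. Of the list of other pump and FXYD genes, 4 genes are not reported here.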

Additional observations from a re-analysis of the deposited data

Results flagged for a closer look

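For 7 results the change with ischemia in a zone differed from the change in cortex by a test of the difference itself, on the log2 scale in the model with the section as a block. In the outer stripe these were Atp1b1 (-1.04, SE 0.17, adjusted p = 0.000172) and Fxyd5 (0.59, SE 0.18, adjusted p = 0.0221), where 23% of 13975 genes were called in edgeR. In the inner stripe it was Atp1b1 alone of the 6 members (-0.66, SE 0.17, adjusted p = 0.00908), beside 19.5% of genes. The inner stripe value lost its call without ischemic section 1 (-0.60, adjusted p = 0.184) or 2 (-0.71, adjusted p = 0.105).

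In the inner medulla these were Atp1b3 (-0.56, SE 0.14, adjusted p = 0.00967), Fxyd1 (-1.39, SE 0.42, adjusted p = 0.0298), Fxyd4 (-1.27, SE 0.35, adjusted p = 0.0173) and Fxyd5 (-0.64, SE 0.21, adjusted p = 0.042), beside 14% of genes. Each of the 4 lost its call without ischemic section 1 (adjusted p = 0.248, 0.28, 0.263 and 0.215) or ischemic section 2 (adjusted p = 0.113, 0.247, 0.0546 and 0.378). Atp1b3 also lost it without normal section 2 (adjusted p = 0.0517), and Fxyd1 (-0.61, adjusted p = 0.23) and Fxyd5 (-0.25, adjusted p = 0.481) without normal section 1; without normal section 2 the value of Fxyd1 was -2.18 (adjusted p = 2.31e-07). The summed adipocyte markers of this zone were at 5510.0 plain CPM in normal section 1 and 1034 in normal section 2, and their part in the results was not tested.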

How the results depend on the processing

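No member turned its called direction in any comparison: over members, comparisons and alternatives, 1067 values stayed on the same side of the threshold, 92 lost a call and 47 gained one. Counts of members called moved as follows. In the outer stripe against cortex of normal sections the count of 2 became 0 without the section block, 1 without boundary spots and 4 with zones from the spot alone; the inner stripe count of 3 became 5 with zones from the spot alone. In ischemic sections the inner stripe count of 5 became 3 with library size only. For zone by ischemia, the inner medulla count of 4 became 2 with Cryab and Fxyd4 in the list, 2 without the section block, 2 without boundary spots and 1 from the spot alone; the inner stripe count of 1 became 2 without a filter and 0 without the section block; the outer stripe count of 2 became 1 without the section block. For ischemic minus normal in the inner stripe, 3 became 5 from the spot alone. The causes were not tested.

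Leaving out 1 section in turn gave 2 to 6 members called over whole sections, 4 in cortex, 5 to 6 in outer stripe, 1 to 6 in inner stripe, 1 to 5 in inner medulla and 2 to 4 in pelvis. Against cortex it gave 0 to 4, 2 to 3 and 6 in the outer stripe, inner stripe and inner medulla of normal sections, and 2 to 5, 2 to 5 and 4 to 5 in ischemic sections; for zone by ischemia it gave 1 to 2, 0 to 2 and 0 to 3. A section left alone in its group is assumed to vary like the other group.

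The labels do not say whether sections with the same number in both groups belong together. Over 15305 genes, the log difference between normal sections 1 and 2 correlated at 0.162 with that between ischemic sections 1 and 2. This single value does not settle whether the sections are paired. With the replicate block, 5 members were called in the inner stripe, Fxyd4 passed over whole sections (-0.38, adjusted p = 0.00749), and 10089 genes were called instead of 9279.

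Thinning to 2000 UMIs moved the mean share of spots with a UMI in normal and ischemic sections to 89.9% and 85.4% for Atp1b1, 13.6% and 19.3% for Atp1b3, 3.49% and 1.38% for Fxyd1, 22.8% and 26.6% for Fxyd4, and 6.39% and 18.1% for Fxyd5, and to 99.96% in ischemic sections for Fxyd2.

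Over all genes, DESeq2 called 3427 instead of 5430 in the inner stripe, 1750 instead of 3180 in the inner medulla and 1323 instead of 2677 in the pelvis, and zones from the spot alone gave 4784 in the inner medulla. Without the section block, zone by ischemia gave 1819 instead of 3214 in the outer stripe, 1607 instead of 2722 in the inner stripe and 1127 instead of 1957 in the inner medulla, and the outer stripe of normal sections 2202 instead of 3344. Without ischemic section 1 or 2 these interactions gave 982 and 1132, 969 and 1070, and 734 and 551, and ischemic minus normal gave 3272 and 3297 in the inner stripe and 1808 and 1736 in the inner medulla, with 1413 in the pelvis without ischemic section 1. Against cortex in ischemic sections they gave 1850 and 2262 instead of 5273, 3920 and 3997 instead of 6933, and 3854 and 3690 instead of 6700 in outer stripe, inner stripe and inner medulla; in normal inner medulla the count without normal section 2 was 3713 instead of 5598. Spots without a macrophage or neutrophil UMI, chosen as an alternative after seeing the data, gave 5938 over whole sections, instead of 9279.

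With library size only, the median log2 difference of all genes went from 0.02 to 0.23 in cortex, 0.05 to 0.42 in outer stripe, 0.07 to 0.39 in inner stripe and 0.02 to 0.15 in inner medulla, and the share of higher calls went from 51.5% to 67.8% in cortex, 51.2% to 69.9% in outer stripe and 47.5% to 64.7% in inner stripe. Against cortex it went from 48.9% to 78.8% and 45.3% to 73.0% in normal and ischemic inner medulla, from 49.0% to 76.2% and 46.7% to 74.3% in the inner stripe, and from 55.0% to 31.2% in normal outer stripe; for zone by ischemia it went from 28.0% to 42.7% in the inner stripe and 37.5% to 62.2% in the outer stripe.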
